A study of Mus musculus with 6 samples.

Results

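The genes described here encode the machinery that moves membrane and cargo between the compartments of a cell: Rab and Arf family GTPases, the COPI and COPII coats, the TRAPP tethers, the p24 cargo receptors and the proteins named Sec after yeast secretion mutants. Members were the probe sets whose single gene symbol in the array annotation began with Rab and a digit, Arl and a digit, Sec and a digit, Tmed and a digit or Trappc, or was one of Arf1 to Arf6 or of the COPI subunits Copa, Copb, Cope, Copg and Copz with or without a digit. This rule found 319 of 45137 probe sets, which stood for 145 of the 18193 genes with a single symbol. MOE430A carried 213 of them (118 genes) and MOE430B carried 106 (73 genes), with 46 genes on both array types. The rule follows names, so it also took in antisense transcripts (Rab26os, Rab10os, Rab11fip4os1), binding partners (Arl2bp, Arl14ep, Rab5if), lipid-binding Sec14-like proteins and Sec1, a fucosyltransferase gene in the mouse, and it left out proteins such as the delta subunit of COPI, whose symbol is Arcn1.

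All arrays measured total RNA of 1 kind of cell, DR4 fibroblasts from mouse embryos of day 15, which serve as feeder layers for embryonic stem cells and were profiled as a control for stem cell lines that are not analysed here. DR4 names a mouse strain bred to carry several drug resistance genes, so that its fibroblasts survive drug selection of the stem cells grown on them. Cells grew on 0.1% gelatin at 37 C and 5% CO2 in D-MEM with 15% serum and LIF, the cytokine that holds mouse embryonic stem cells undifferentiated. The labels give 12x10e6 cells and 2.4 ug/ul of RNA for replicate 1, and 3x10e6 cells and 3.0 ug/ul for each of the other two. Each replicate was hybridized to 1 MOE430A and 1 MOE430B array, and both sets of 3 arrays are kept apart because each type was scaled on its own. Whether the replicates were separate cultures is not stated, so each p-value rests on variation among these 3 preparations alone, and that variation may be technical.

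In the secretory pathway, proteins enter the endoplasmic reticulum (ER) through the Sec61 channel, leave it in COPII-coated vesicles and are returned from the Golgi in COPI-coated ones. Arf GTPases recruit the COPI coat, and Rab GTPases, switched on by exchange factors such as TRAPP, mark each compartment so that tethers and motors find it. Fibroblasts secrete collagen and other matrix proteins through this route, while some Rabs serve granules, synaptic vesicles or pigment organelles that other cell types make.

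A signal is the MAS5 intensity of a probe set on a linear scale. It is not a transcript level per length, so signals of different probe sets are not ranked against each other. The median signal of each array served as a floor: it lay between 685 and 734 on the MOE430A arrays and between 849 and 917 on the MOE430B arrays. A probe set counted as above the floor when it exceeded that median on all 3 arrays of its type, and a gene counted when any of its probe sets did. Where 3 values follow each other, they are those of replicates 1, 2 and 3, in that order. Many genes are named below because they were the brightest above the floor or the dimmest not above it. For these, the side of the floor was set by that choice.

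Of the 145 member genes, 116 (80.0%) were above the floor on either array type, beside 9944 of all 18193 genes (54.7%). On MOE430A the count was 88 of 118 member genes (74.6%), beside 6198 of all 12393 genes (50.01%). On MOE430B it was 49 of 73 (67.1%), beside 4885 of 9607 (50.8%). Members had 1.805 probe sets per gene on MOE430A, against 1.644 over all genes, and more probe sets give a gene more chances to pass. By the first listed probe set alone, 81 member genes (68.6%) were above the floor on MOE430A, against 42.6% of all genes, and on MOE430B 41 (56.2%) were, against 42.8%. Of the 29 genes that were not above it, 17 exceeded the median on no array by any probe set, 3 did so on 1 array at best and 9 on 2.

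**Figure D1:**
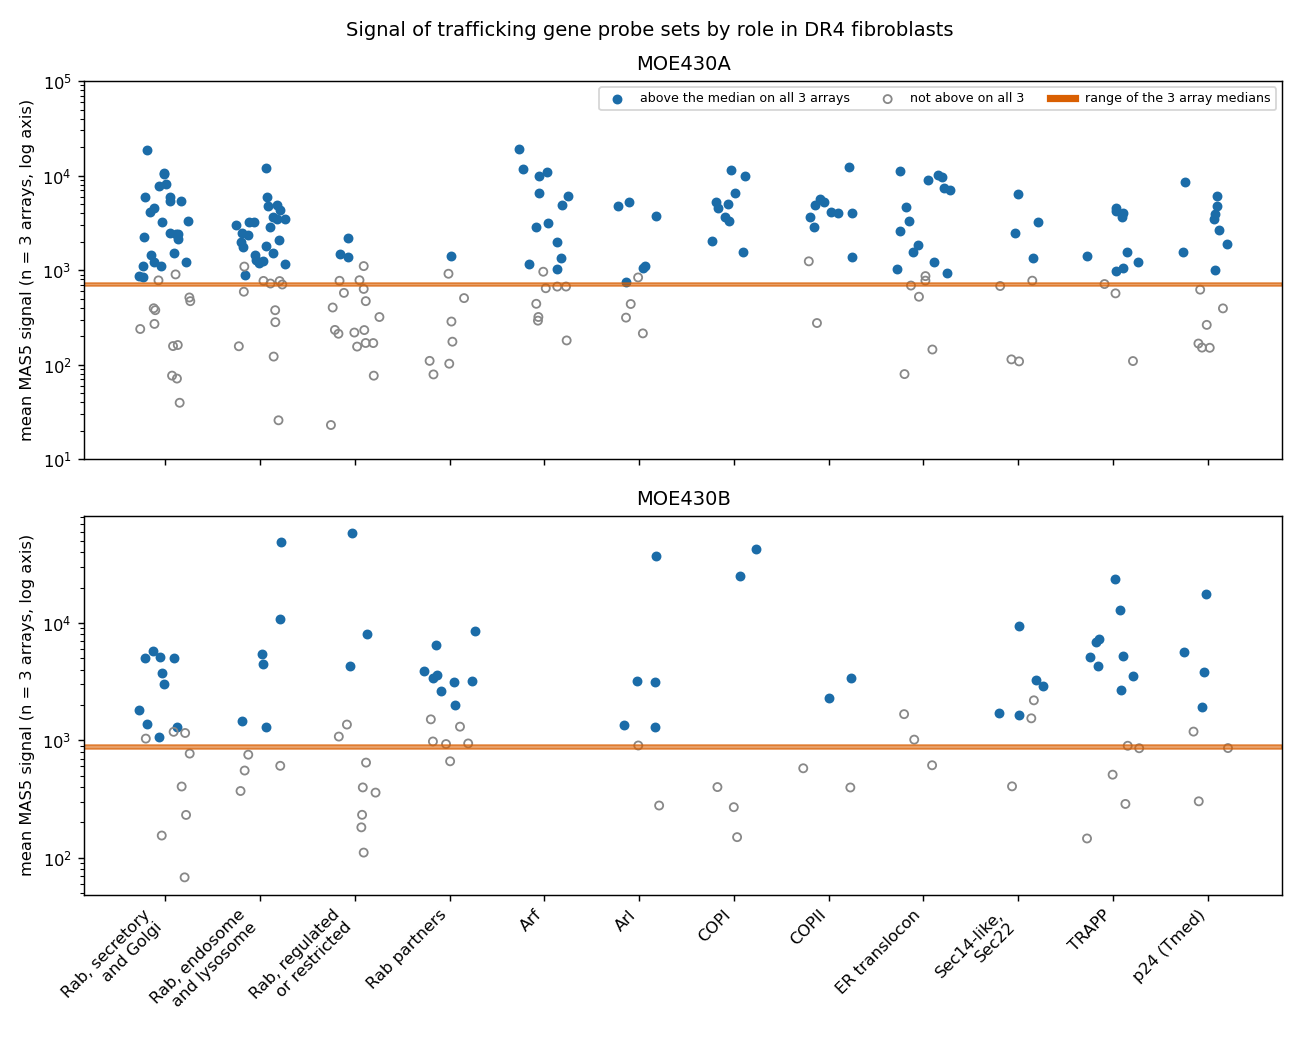
Each point is the mean MAS5 signal of 1 member probe set over the 3 arrays of its type (log axis), in columns by role. Filled points exceeded the array median (orange band) on all 3 arrays and open points did not. The COPI column holds 10 filled points of 10 on MOE430A and 2 of 5 on MOE430B, and on MOE430A the column of regulated or restricted Rabs holds 3 of 20.

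The identity of the cells was checked with marker genes. All 10 fibroblast markers were above the floor, among them vimentin (Vim, 1450641_at) at 164029, 130581 and 153518 and Col1a2 (1450857_a_at) at 119800.0, 147295 and 169211 on MOE430A. None of the 5 pluripotency markers was. Pou5f1 read 15.6, 265 and 46.0 and Nanog read 36.8, 119 and 119 on those arrays, and Sox2 and Zfp42 were also under the median on each. Utf1 was split, at 694, 1259 and 498 by 1416899_at, and missed the median on replicate 3 alone. Each Utf1 probe set on MOE430B exceeded the median on 1 array. Smaller sets gave 2 of 4 macrophage markers (Lyz2 and Csf1r), 2 of 4 epithelial (Krt8 and Epcam), 1 of 4 neuronal (Stmn2), 1 of 3 endothelial (Kdr) and 0 of 3 melanocyte markers above it. The summed macrophage signal was 7600.2, 7828 and 7573 on MOE430A, and that of the fibroblast markers was 896139, 991857 and 1056099. In bulk RNA, fewer cells of a type and less RNA per cell cannot be told apart.

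Rab GTPases of the secretory path and the Golgi were above the floor in 20 of 24 genes. Rab1a (1416082_at), which drives transport from the ER to the Golgi, gave 20784, 17545 and 17639.7 on MOE430A. Its paralogue Rab1b gave 6740.3, 5501 and 5664. The values of both lie far above the 3 medians, and replicate 1 was the highest of the 3 for each. Rab18 (1420900_a_at), a Rab of the ER and of lipid droplets, gave 12673, 8999 and 10097. Rab34 (1416591_at), which acts at the Golgi and in the formation of primary cilia, gave 9050.2, 11193 and 11306. Neither Rab came near the median on any array. Rab2a (1418622_at), which works between the ER and the Golgi, held 8205, 8245 and 8007, the smallest spread of any member above the floor on MOE430A (SD of log2 signal 0.02, n = 3).

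Further members of this group were read on MOE430B. Rab36 (1455064_at) gave 6011, 4892 and 6516 there. Rab8a, which serves transport to the plasma membrane and to cilia, gave 3899, 4754 and 2664 by 1440620_at on MOE430B and 4706, 4209 and 4699.8 on MOE430A. Its paralogue Rab8b gave 2414, 2365 and 1662 by 1426799_at on MOE430A. All 3 genes stayed above the floor on every array by these probe sets. Each also had a probe set under the median on all 3 arrays of its type. Their mean signals were 231 (Rab36, 1431136_at), 154 (Rab8a, 1457624_at) and 71.6 (Rab8b, 1426800_at). Rab6b, a Golgi Rab known from neurons, was above the floor on MOE430B, at 1799, 1988 and 1676 by 1455924_at. Its probe set on MOE430A (1434914_at) read 137, 51.8 and 41.4. The 4 genes not above the floor were Rab19, Rab30, Rab33a and Rab40b. Rab40b (1425756_at), a Rab with a domain for ubiquitin ligase assembly, read 44.0, 36.8 and 38.3, and the values of Rab33a, 411, 590.2 and 134, were also under the MOE430A median on each array. Rab30, a Golgi Rab, read 306, 332 and 174 on MOE430A and 812, 1083 and 1209 on MOE430B, where replicates 2 and 3 passed the median and replicate 1 did not.

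Rabs of endosomes, recycling and lysosomes were above the floor in 16 of 21 genes. Rab7 (1415734_at), which directs late endosomes to lysosomes, gave 12119.5, 11688 and 12391 on MOE430A. Rab5c, a Rab of early endosome fusion, gave 7084, 5648 and 5056. Its paralogue Rab5a gave 2427, 3012 and 1979.7. All 9 values lie above the medians without overlap, and Rab5b was also above the floor on both array types, at 908, 943 and 1606 on MOE430A and 941, 1449.6 and 1524 on MOE430B. The recycling Rab11a (1449256_a_at) gave 5556, 5252 and 4001. Rab11b (1423448_at) gave 4437, 4556 and 5219. Replicate 3 was the lowest for Rab11a and the highest for Rab11b, so these paralogues did not share an order of replicates.

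The 5 endosomal and lysosomal Rabs not above the floor were Rab4a, Rab7b, Rab9b, Rab20 and Rab32. Rab20 (1438097_at), known from phagosomes of macrophages, read 26.9, 19.1 and 31.9, under the median on all 3 arrays. Rab7b, known from human monocytes, read 362, 459 and 26.7 by 1435830_a_at. Rab9b (1433791_at) read 756, 190.1 and 163 on MOE430B. All 9 of these values lie under the median of their array. Rab4a, a Rab of fast recycling, read 1468, 1342 and 470.0 by 1449048_s_at, with replicates 1 and 2 above the median and replicate 3 under it. Rab32, which is linked to mitochondria and melanosomes, read 939.7, 775 and 599, and also missed the median on replicate 3 alone.

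Of the 14 Rabs known for regulated secretion or for restricted tissues, 5 (35.7%) were above the floor, against 111 of the 131 other members (84.7%). Over all genes the share was 54.7%, and the role groups were chosen with earlier results known. The other members include Rabs also described here from particular cells or organelles. Of these, Rab6b was above the floor and Rab7b, Rab20 and Rab32 were not, so the contrast depends on how the groups were drawn. The 9 restricted Rabs not above the floor included Rab3b and Rab3c, which serve synaptic vesicles, and Rab27a, which tethers melanosomes and cytotoxic granules. Rab17 and Rab25 of epithelial cells and the granule Rabs Rab26 and Rab37 were among them too. Rab3b (1422583_at) read 152, 128 and 188 on MOE430A. Rab27a was measured by 3 probe sets there, and the brightest, 1454438_at, read 457, 642 and 629.6. Rab26 (1435500_at) read 156, 221 and 167 on MOE430B. Every one of these values lies under the median of its array. Rab25 (1417738_at) was split, at 144, 1059 and 1116, with replicate 1 under the median and replicates 2 and 3 above it.

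On MOE430A, 3 of these Rabs passed. Rab15 (1417829_a_at), an endocytic recycling Rab best known in neurons, gave 2152, 2402 and 2062. Rab3a (1422589_at), the main Rab of synaptic vesicles, gave 985, 1509 and 1974. Rab3d (1418890_a_at), a Rab of exocrine granules, gave 1212, 1472 and 1410.0. Replicate 1 was the lowest of the 3 for Rab3a and Rab3d, and the other 3 probe sets of Rab3d were not above the floor on all 3 arrays.

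On MOE430B the restricted Rabs above the floor were Rab3a, Rab27b and Rab38, each by a probe set whose ID ends in _x_at, a suffix that marks probes which can match other transcripts. Rab3a (1459980_x_at) gave 65132, 53054 and 56215. Rab38 (1439628_x_at), a melanosome Rab, gave 9997, 6783 and 7395, whereas its MOE430A probe set 1417700_at read 348, 405 and 661 and did not pass. Rab27b (1443764_x_at), a Rab of platelet and mast cell granules, gave 4675, 4563 and 3617, whereas both of its MOE430A probe sets stayed under the median on each array. Without the probe sets ending in _s_at or _x_at, 3 of 14 restricted Rabs (21.4%) were above the floor, against 108 of 128 other members (84.4%). Over all genes the share was then 53.0%. Of the epithelial markers, Epcam was above the floor by 1447899_x_at on MOE430B (17127, 36210.1 and 43842) and not by 1416579_a_at on MOE430A (37.0, 80.5 and 68.8). Krt8 went the other way, above it by 1420647_a_at (1701, 1753 and 1052) and under it by both of its _x_at probe sets, which read 363, 134 and 62.7 and 61.8, 102 and 72.7. What the _x_at probe sets bound was not tested. The melanocyte markers Tyr, Dct and Mlana were not above the floor on all 3 arrays, and neither were the neuronal markers Syp, Snap25 and Tubb3. Tyr missed the floor on replicate 2 alone by 1417717_a_at (1154, 669 and 816 on MOE430A). Mlana passed on replicate 2 alone on MOE430B, and Tubb3 on replicate 1 alone on MOE430A. Dct, Syp and Snap25 passed the floor on no array. The fourth neuronal marker, Stmn2, was above it by both probe sets, at 3392, 3427 and 2630.0 and at 1586, 1317 and 1708 on MOE430A, and its part in the signals of the neuronal Rabs was not tested.

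**Figure D2:**
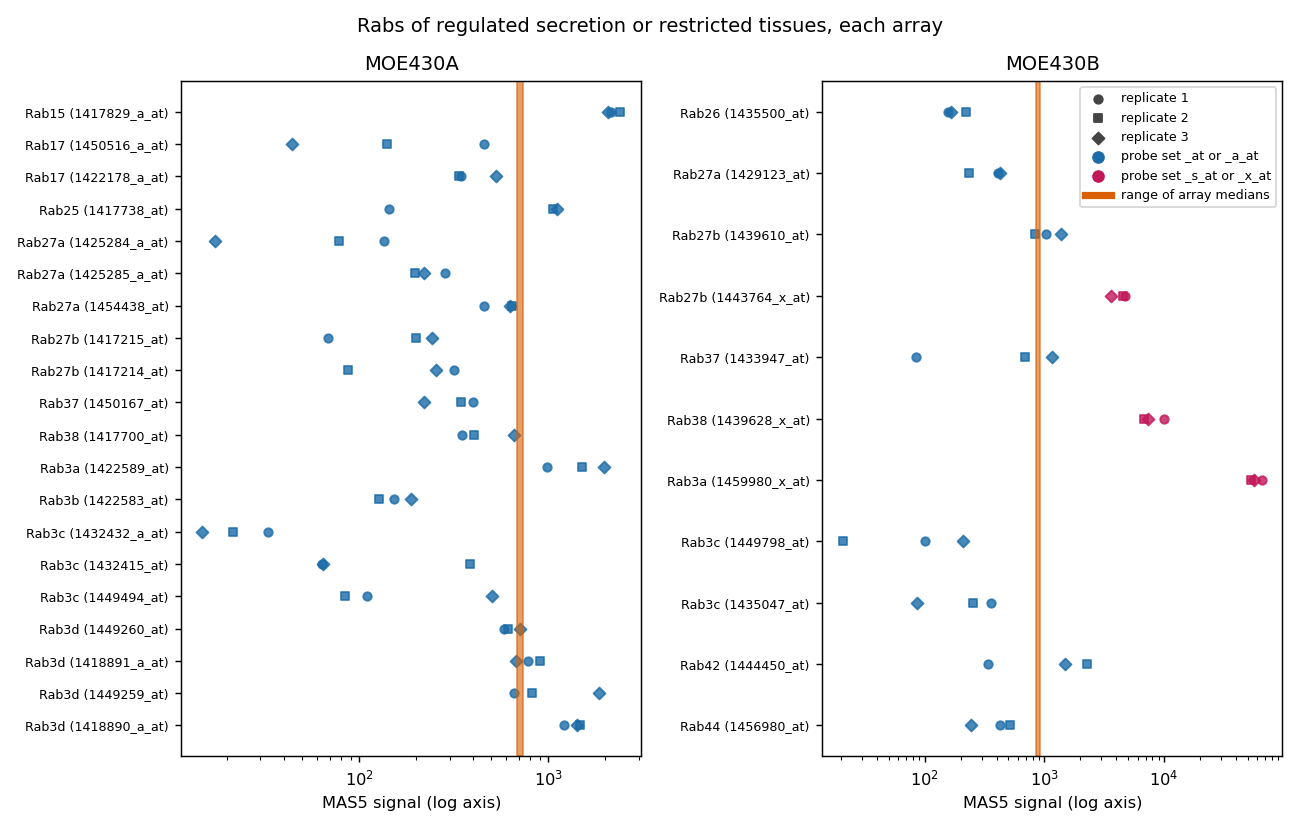
MAS5 signal (log axis) on each array for every probe set of the 14 Rabs known for regulated secretion or restricted tissues; the marker shape gives the replicate, red marks probe sets ending in _s_at or _x_at, and the orange band is the range of the 3 array medians. On MOE430B the 3 probe sets wholly to the right of the band are the red ones, with Rab3a between 53054 and 65133.

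The CpG content of the members' promoters differed with their place above or below the floor. RefSeq promoter windows of 300 bases, 250 before to 50 after the start (GRCm38.p6), were found for 120 of the 145 genes, 147 windows in all. The CpG ratio, the observed number of CG pairs over that expected from the C and G content, had a median of 0.80 over the 125 windows of members above the floor and 0.38 over the 22 windows of members not above it. Over all measured genes these medians were 0.75 (10328 windows) and 0.44 (7781 windows), so a gap in the same direction ran through the arrays; windows of 1 gene overlap, and no test was made. The restricted Rabs had a median of 0.39 (14 windows of 9 genes), against 0.78 for the other members (133 windows of 111 genes). Rab15, a gene above the floor, gave 4 of those 14 windows, and without it the median was 0.50 (10 windows of 8 genes). To show both ends, the 150 bases before the start are printed for the Rabs with a single window that had the 2 highest ratios above the floor and, among restricted Rabs, the 2 lowest not above it. CG pairs are in capitals.
Rab6a: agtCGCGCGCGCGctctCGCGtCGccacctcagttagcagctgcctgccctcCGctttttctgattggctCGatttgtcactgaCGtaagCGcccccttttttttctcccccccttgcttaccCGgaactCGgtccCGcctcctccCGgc
Rab35: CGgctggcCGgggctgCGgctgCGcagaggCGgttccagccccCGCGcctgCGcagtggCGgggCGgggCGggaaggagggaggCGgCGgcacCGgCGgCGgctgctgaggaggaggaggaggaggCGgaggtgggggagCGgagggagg
Rab17: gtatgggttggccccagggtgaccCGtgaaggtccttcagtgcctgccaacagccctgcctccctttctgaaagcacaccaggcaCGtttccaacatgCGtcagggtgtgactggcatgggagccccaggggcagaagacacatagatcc
Rab42: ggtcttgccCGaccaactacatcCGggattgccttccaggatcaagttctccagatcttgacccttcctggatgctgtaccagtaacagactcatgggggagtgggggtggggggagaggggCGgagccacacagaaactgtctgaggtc
These lie at chr7:100607436-100607585 on the plus strand (Rab6a), chr5:115631837-115631986 on the plus strand (Rab35), chr1:90967668-90967817 on the minus strand (Rab17) and chr4:132303357-132303506 on the minus strand (Rab42). Rab6a has 16 CG pairs in this stretch and Rab35 has 18, while Rab17 and Rab42 have 3 each. Rab6a, which acts in traffic from the Golgi, gave 5407, 4850.0 and 4829 by 1447776_x_at on MOE430B and at least 3096 on every MOE430A array. Rab35 (1433922_at), a Rab of endocytic recycling, gave 6088, 4294 and 4709.8 on MOE430B. Since these genes were picked by their side of the floor, their signals are given as a description. Rab17 (1422178_a_at) read 346, 336 and 529 on MOE430A, and Rab42 (1444450_at) read 339.9, 2275 and 1474 on MOE430B, with replicate 1 under the median and the other two above it.

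Short motifs were counted in the same windows on both strands. ACGTG occurred in 54 of 147 member windows (36.7%), against 19.6% of all 32851 windows. CCACG occurred in 72 (49.0%), against 32.8%. Both contain a CG pair, and member windows are richer in CG (median ratio 0.76, against 0.38 over all windows), so these sets differ in CpG content as well. Among genes above the floor, ACGTG was in 38.4% of member windows and in 25.4% of the windows of all measured genes. The median CpG ratios there were 0.80 and 0.75. Among genes not above the floor the shares were 27.3% and 19.5%, at ratios of 0.38 and 0.44. How far the shares follow the CpG content was not tested. The full ER stress element, which ends in the CCACG counted before, was in 0 of the 147 windows, against 0.119% of all. TGACGTCA, the palindromic cyclic AMP response element, was in 4 member windows (2.72%; Cope, Rab11fip3, Rab25 and Rab5a), against 1.79% of all. A match is a description of letters and not a bound site.

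**Figure D3:**
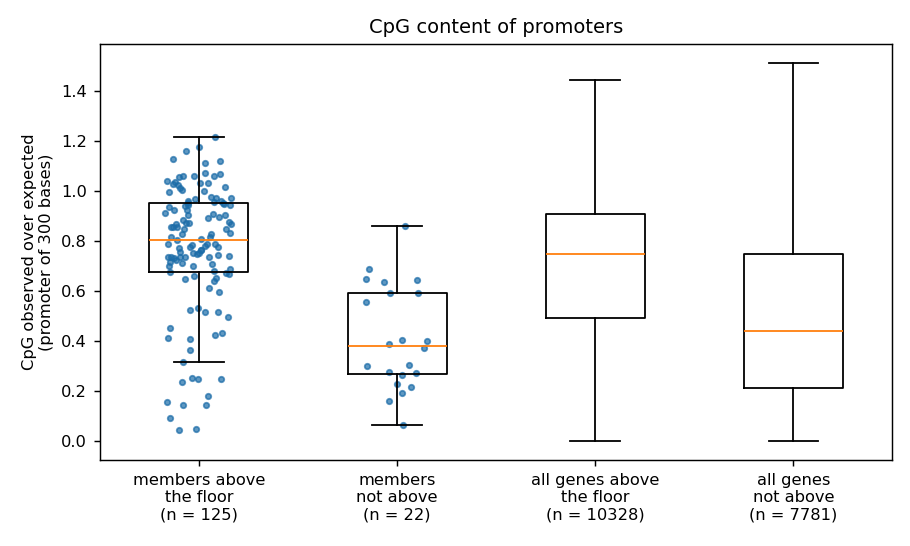
CpG ratio of RefSeq promoter windows of 300 bases for members above the floor, members not above it, and all measured genes in the same split; boxes span the quartiles with the median as a line, whiskers follow the usual box plot rule, and points are single member windows. The member medians are 0.80 and 0.38, and those of all genes 0.75 and 0.44.

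Rab partners matched by the rule were above the floor in 9 of 9 genes. Without probe sets ending in _s_at or _x_at the count was 7 of 8. On MOE430A 1 of 4 genes passed, and on MOE430B all 9 did. Rab3gap1 (1455922_at), the catalytic subunit of a complex that switches off Rab3 and switches on Rab18, gave 6151, 6025 and 7277. Its partner Rab3gap2 (1454915_at) gave 3951, 2511 and 4341, with replicate 2 the lowest. Rab11fip5 (1434314_s_at), 1 of the 5 effectors of Rab11 measured, gave 9751, 7932 and 7952. Signals of Rab11fip1 to Rab11fip4 had a probe set above the floor as well, between 2082 and 4279.7 on the 3 arrays by their brightest. The exchange factors of Rab8, Rab3ip and Rab3il1, were above it on MOE430B and not on MOE430A: Rab3ip read 847, 426 and 249 by 1434306_at on MOE430A and 2070.2, 2399 and 1573 on MOE430B.

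All 6 Arf GTPases were above the floor. Arf1 (1426390_a_at), which recruits COPI and clathrin adaptors at the Golgi, gave 16489, 23176 and 17429 on MOE430A. Arf4 (1423052_at) gave 12232, 12816 and 10412. Arf3 (1423973_a_at) gave 7544, 5322 and 6939. These Golgi Arfs were above the median on each array, which follows from naming the brightest genes above the floor. Arf6 (1418822_a_at), the Arf of the plasma membrane and endosomes, gave 6631, 6445 and 5119. Arf5, with 1 probe set, gave 1589, 2251 and 2183. Arf2, which mice have and humans lack, gave 1716, 923 and 839.6 by 1416458_at, with replicate 1 apart from the other two.

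The genes named Arl, which include the binding partners Arl2bp and Arl14ep, were above the floor in 7 of 9. Arl1 (1451025_at), which places golgin tethers on the trans-Golgi, gave 3379, 4336 and 3551 on MOE430A. Arl2 (1422549_at), which acts in tubulin folding, gave 6167, 5425 and 4228. Arl3 (1450706_a_at), which releases cargo in cilia, gave 4705, 5894 and 3708. All 3 genes passed on every array. Arl15 and Arl11 passed on MOE430B, and Arl16 passed narrowly on MOE430A at 691, 785 and 796 by 1452103_at. Arl14 (1430234_at), known from vesicles of human immune cells, read 383, 39.2 and 412 on MOE430B and did not pass, nor did its effector Arl14ep.

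The COPI genes that the name rule matched were above the floor in 8 of 8 cases. On MOE430A 10 of their 10 probe sets passed, whereas on MOE430B 2 of 5 did, with Copz1 (1447834_at) at 489.9, 396 and 313 and the second probe sets of Copa and Copg1 also under the median on all 3 arrays. The alpha subunit Copa (1415706_at) gave 11642, 11909 and 10827 on MOE430A. The beta-prime subunit Copb2 (1452102_at) gave 10273, 9185 and 9999. The gamma subunit Copg1 (1415670_at) gave 6149, 7333 and 6296. Its paralogue Copg2 gave 1444, 1739.9 and 1508, and all 6 of these values were above the medians. Cope (1416384_a_at) gave 4855, 5747 and 5116. The zeta subunits differed in spread, with Copz1 (1451825_a_at) at 3775, 3609 and 3580.2 and Copz2 at 3326, 5679 and 4624, where replicate 1 was the lowest.

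The COPII coat and its organizers were above the floor in 10 of 11 genes. Sec31a (1453014_a_at), of the outer cage, gave 15195, 9093 and 13121 on MOE430A. Its outer partner Sec13 gave 4503, 4077 and 3370.0. Sec23a (1423347_at), an inner coat subunit that acts on the GTPase Sar1, gave 7025, 5393 and 4492. Its paralogue Sec23b (1416059_at) gave 2862, 2953 and 2844, the second smallest spread of the members above the floor on this array type (SD of log2 signal 0.03, n = 3). Replicate 2 was the lowest for Sec31a and replicate 3 for Sec23a. The 4 cargo-binding Sec24 paralogues all passed. Sec24c (1452147_at) gave 4268, 4996 and 6639, Sec24d gave 4231, 3791 and 3919.7, and Sec24a (1433934_at) gave 3726, 3370.1 and 3104 on MOE430B. Sec24b gave 1368, 1176 and 1598 by its passing probe set. Sec16a (1426814_at), the scaffold of ER exit sites, gave 4983, 4389 and 5467, while its paralogue Sec16b (1450734_at) read 323, 319 and 188, under the median on all 3 arrays.

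The ER translocon and its helpers were above the floor in 6 of 7 genes on MOE430A. The channel subunit Sec61a1 (1448242_at) gave 9740.0, 10366 and 10592, and all 6 of its probe sets passed. Sec61b (1417083_at), the beta subunit, gave 9288, 14252 and 10337. The paralogue Sec61a2 gave 1186, 1064 and 837 by 1449944_a_at. Sec61a2 was thus above the floor and near it, and its second probe set passed on 2 of 3 arrays. Sec62 (1433704_s_at), which helps short proteins enter the ER, gave 8463, 10517 and 9871. Sec11a (1418223_at), a catalytic subunit of signal peptidase, gave 6083, 7703 and 7134, while the alternative catalytic subunit Sec11c (1460698_a_at) read 635, 786 and 909, with replicate 1 under the median. The 3 translocon probe sets on MOE430B, of Sec11c, Sec62 and Sec63, did not pass.

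Among the other Sec genes, 6 of 8 were above the floor. Sec22b (1449063_at), a SNARE of vesicles between the ER and the Golgi, gave 3144, 3483 and 3117 on MOE430A. Sec22c (1436102_at) gave 2619.5, 3714 and 3528 on MOE430B, and Sec22a was above the median on 1 array at best. Sec14l1 (1453412_a_at) gave 6106, 7146 and 6058 on MOE430A. Sec14l4 (1424676_s_at) read 136, 63.7 and 127, under the median on all arrays. Sec1 read 77.4, 216 and 49.4 by 1423009_at on MOE430A and 2088, 1736 and 1334 by 1455784_at on MOE430B, so its 2 probe sets fell on opposite sides of the floor.

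All 14 genes of the TRAPP tether, which switches on Rab1 and captures vesicles, were above the floor. Trappc3 (1416771_at), a core subunit, gave 5689, 3865 and 4006 on MOE430A. Trappc1 (1436019_a_at) gave 4555, 4278 and 3879.9. Trappc6b (1428177_at) gave 31767, 12533 and 26994 on MOE430B, the largest spread of any member above the floor there (SD of log2 signal 0.72, n = 3), with replicate 2 far below the other two. Its second probe set gave 7817, 6907 and 7072, with no such gap. Trappc8 (1428969_at) gave 6981, 5251 and 8371 and Trappc9 (1452745_at) gave 4567, 5269 and 5887 on MOE430B. Trappc13 read 611, 678 and 855 by 1418667_at on MOE430A, where only replicate 3 passed, and passed on MOE430B at 2939, 2798 and 2357.

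The p24 cargo receptors were above the floor in 7 of 10 genes. Tmed9 (1448268_at) gave 8905, 8500.3 and 8099 on MOE430A. Tmed3 (1416108_a_at) gave 4379, 7609 and 6299. Tmed10 (1424707_at) gave 4251, 5506 and 4512. Replicate 2 was the highest for Tmed3 and Tmed10, and replicate 1 for Tmed9. Tmed7 (1429187_at) gave 17411, 16246 and 19714 on MOE430B and Tmed5 (1431789_s_at) gave 5062, 5534 and 6241. Tmed6 (1416490_at) read 247, 62.7 and 144 and Tmed11 (1418111_at) read 136, 81.8 and 286, with all 6 values under the MOE430A medians. Tmed2, the usual partner of Tmed10, had 1 probe set, 1460128_at on MOE430B, which read 203, 1516 and 857 and passed on replicate 2 alone.

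The 4 matched genes outside these groups were Rab5if and 3 antisense transcripts. Rab5if (1416699_at), named for an interaction with Rab5, gave 13976, 10722 and 11205 on MOE430A. Rab10os (1431818_at) gave 2123, 1735 and 3507 on MOE430B, whereas Rab26os and Rab11fip4os1 were not above the floor. Of 42 further genes of the same pathways that the name rule left out, 40 were measured and 39 were above the floor on either array type, with Bet1 the exception. Over all 18193 genes the share was 54.7%. The 40 genes had 96 probe sets, and more probe sets give a gene more chances to pass. Sar1a (1415696_at), the GTPase that starts COPII assembly, gave 15799.9, 13661 and 14810.1 on MOE430A. Kdelr2 (1417204_at), a receptor that returns ER proteins, gave 19631, 28351 and 23968. The SNARE Bet1 (1416866_at) read 596, 466 and 342, under the median on each array.

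Probe sets of 1 gene often fell on opposite sides of the floor. Of 53 member genes with several probe sets on MOE430A, 15 (28.3%) had 1 above it on all 3 arrays and another under it on all 3, beside 30.6% of all such genes. On MOE430B this held for 10 of 25 (40.0%), beside 34.1%. Sec11a showed it within a gene: 1418223_at gave the values above, and 1418224_at read 72.4, 57.6 and 109. Arf4 read 289, 238 and 16.2 by 1434074_x_at. Rab2a had 7 probe sets, 4 above the floor and 3 under it, and the dimmest, 1419946_s_at, read 158, 240.3 and 87.5. On MOE430B, Copg1 read 27884, 25084 and 21943 by 1415670_at and 203, 148 and 96.9 by 1429575_at. Whether a gene counted as above the floor thus depended on which of its probe sets were read, and the positions of the probes were not used here.

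Among probe sets above the floor, the members varied by a median SD of 0.21 in log2 signal over 3 arrays on MOE430A (131 probe sets), against 0.24 over all 9600, which corresponds to coefficients of variation of 14.6% and 16.5%. On MOE430B the medians were 0.27 for 56 members and 0.28 for all 8384. The highest array exceeded the lowest by over 2-fold in 4 of 131 members (3.05%) on MOE430A, beside 7.57% of all, and in 4 of 56 (7.14%) on MOE430B, beside 13.3%. Members were also more often bright, with 38.5% of their MOE430A probe sets and 20.9% of all above the 75th percentile on each array, and bright probe sets vary less. Above that percentile the median SD was 0.18 for members and 0.22 for all on MOE430A, and 0.21 and 0.23 on MOE430B. Sec63 (1424926_at), which works with Sec62 at the translocon, had the largest spread on MOE430A, at 1838, 905 and 1917, with replicate 2 far below the other two. Copb2 varied by 1456175_a_at, at 2492, 2354 and 1228, where replicate 3 was the low one, and not by 1452102_at. Sec22b (1415766_at) had the smallest spread on MOE430B, at 9118, 9635 and 9279.8.

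The only difference that the labels set between replicates is the cell number and RNA concentration of replicate 1, and it was tested with limma over all probe sets whose mean log2 signal exceeded the mean floor, a filter that 145 of 213 member probe sets passed on MOE430A and 70 of 106 on MOE430B. No member passed an adjusted p of 0.05 on MOE430A (0 of 145, in 94 genes), where 78 of 11066 probe sets did (0.705%). None passed on MOE430B either (0 of 70, in 55 genes), where 0 of 10594 did (0%). At an unadjusted p under 0.05 there were 5 members on MOE430A (3.45%), beside 8.13% of all tested, and 4 on MOE430B (5.71%), beside 7.24%. The fit has 1 residual degree of freedom per probe set, the difference between replicates 2 and 3, so its spread is mostly borrowed from all probe sets. The MOE430A arrays of replicates 1 and 2 were scanned on the same day after the same fluidics station, and that of replicate 3 differed in both. On MOE430A the residual thus also holds any effect of station and scan day. All MOE430B arrays were scanned on 1 day, but replicate 1 had a fluidics station of its own, and its effect cannot be told apart from that of cell number.

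Each array had been brought to a common level, which draws the typical difference between replicates towards 0. The differences of replicate 1 from the mean of replicates 2 and 3 centred near 0. Their median over members was 0.02 on the log2(signal + 16) scale on MOE430A, against -0.01 over all tested, and 0.08 on MOE430B, against 0.03. Within 0.5 of 0 lay 120 members (82.8%) on MOE430A, against 76.8% of all, and 52 (74.3%) on MOE430B, against 64.7%. Replicate 1 was the highest array for 48 of 131 members above the floor on MOE430A (36.6%), beside 33.3% of all, and for 25 of 56 on MOE430B (44.6%), beside 36.4%. It was the lowest for 38 (29.0%) on MOE430A, beside 35.6%, and for 16 (28.6%) on MOE430B, beside 33.6%.

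**Figure D4:**
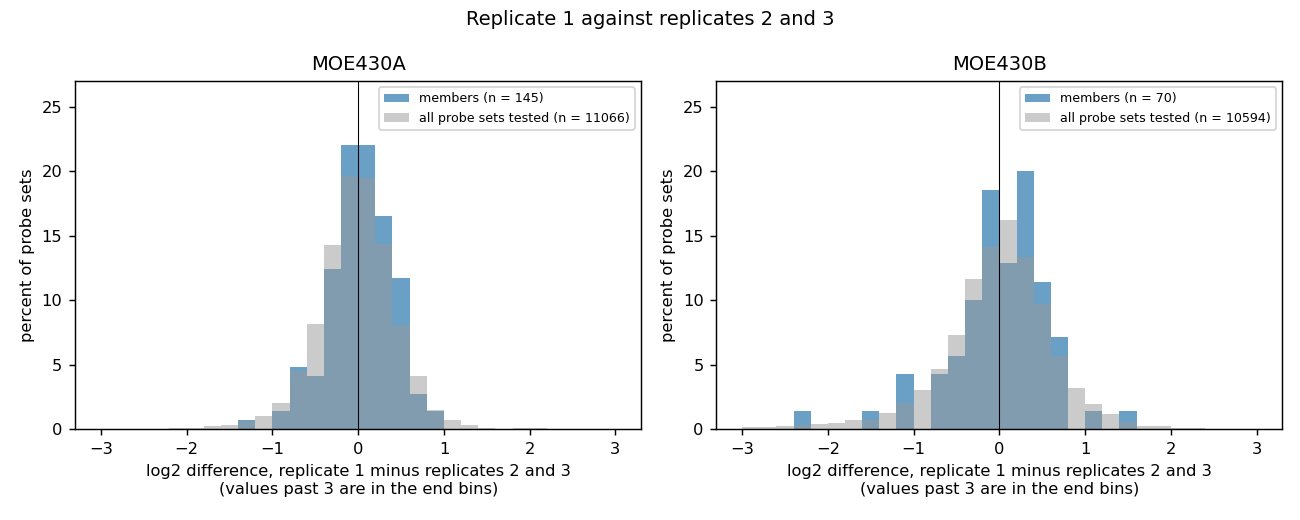
Share of probe sets (percent) by log2 difference of replicate 1 from the mean of replicates 2 and 3, in bins of 0.2, for members (blue) and all probe sets tested (grey) on each array type. Both shapes centre near 0, with member medians of 0.02 on MOE430A and 0.08 on MOE430B.

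Among members tested, Rab3il1 had the largest difference on MOE430A, by 1425133_s_at, which read 453, 1103 and 1198, so that replicate 1 was under the median and the other two above it. Its log2 difference was -1.31 with a standard error of 0.37, and limma gave an adjusted p of 0.114. With the floor in place of the dim value, replicates 2 and 3 were at least 1.67-fold brighter. On MOE430B the same gene read 2301, 3764 and 4157 by 1428391_at, with replicate 1 also the lowest, at a difference of -0.78. Those arrays hold the same 3 preparations, so this is not an independent observation, and replicate 1 had a fluidics station of its own there. Probe sets that the filter left out differed by more, up to -2.78 for Rab25 (1417738_at) on MOE430A and -3.18 for Rab37 (1433947_at) on MOE430B, and did not enter this fit. The 4 other Rab3il1 probe sets on MOE430A were under the median on every array. Arf2 (1416458_at), with the values given above, had the largest difference in the other direction among members tested on MOE430A, at 0.95 with a standard error of 0.37 and an adjusted limma p of 0.370. Its second passing probe set, 1416459_at, read 1154, 704 and 1219.9, where replicate 1 lay between the other two.

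Other MOE430A members with a lower replicate 1 included Rab3d by 1449259_at (661, 815 and 1842), where the gap came from replicate 3. Rab3a (1422589_at) had replicate 1 below both others, at a difference of -0.80. With a higher replicate 1, Rab10 (1429296_at), a Rab of transport to the cell surface, read 1952, 1278 and 1119. Rab2a by 1418621_at read 10422, 5929 and 7012, while its steadiest probe set 1418622_at showed no such gap. None of these passed the adjusted test, and where probe sets of a gene disagreed the cause was not tested.

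On MOE430B the largest difference among members tested was that of Rab42 (1444450_at), at -2.38 with a standard error of 0.44 and an adjusted limma p of 0.442. Replicate 1 was under the median for this gene, so replicates 2 and 3 were at least 2.16-fold brighter. Sec62 by 1444811_at read 442, 1336 and 1263, with replicate 1 again the dim one, whereas by 1433704_s_at on MOE430A, with the values given above, replicate 1 was the lowest by a much smaller margin. Rab19 (1430148_at) read 612, 1523 and 1329.8 and Sec22c by 1456091_at read 838, 1868 and 1915. In all 4 of these probe sets replicate 1 was under the floor and the other two were above it. In the opposite direction, Sec14l3 (1436785_a_at) read 2917, 302 and 3360.2 and Sec63 (1452854_at) read 2234, 418 and 2364, where replicates 1 and 3 were alike and replicate 2 alone was low. Rab11fip1 (1447264_at) read 667, 2503 and 752, with replicate 2 alone high.

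Both array types carried 6 member probe sets under the same ID, of 100 such probe sets in all, and so measured each replicate on an array of either type. Rab14 (1415686_at), a Rab between the Golgi and endosomes, read 3425, 3177 and 2031 on MOE430A and 12151, 8334 and 12003 on MOE430B. Replicate 1 was the highest on both types, but replicate 3 was the lowest on one and replicate 2 on the other. Rab7 (1415734_at) read 61031, 43784 and 41609 on MOE430B, with replicate 1 apart, whereas its MOE430A values lay close together. Trappc4 (1415674_a_at) read 4000.1, 3534 and 3391 on MOE430A and 17312, 9321 and 12189.8 on MOE430B. The replicate with the highest signal was the same on both types in 4 of the 6, beside 59 of all 100, and that with the lowest in 0 of the 6, beside 44 of 100. The levels differ between the types because each was scaled on its own and are not compared.

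**Figure D5:**
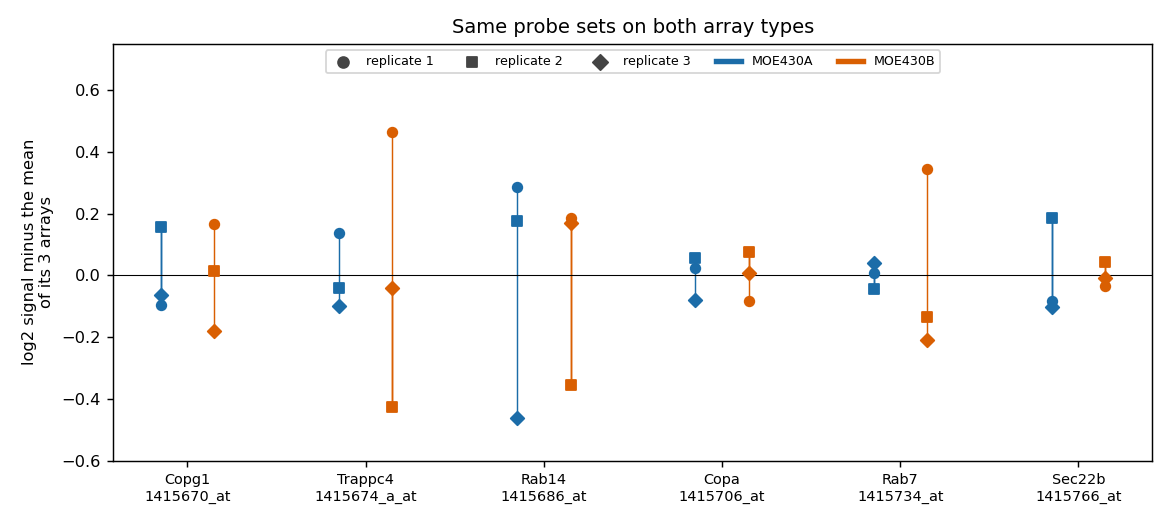
Deviation of each array's log2 signal from the mean of its 3 arrays for the 6 member probe sets carried by both array types (blue MOE430A, orange MOE430B; marker shape gives the replicate). For Rab7 the 3 MOE430A points lie within 0.05 of 0, and replicate 1 on MOE430B lies at 0.34.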

How the data were processed

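Total RNA of DR4 fibroblasts was measured on 3 MOE430A and 3 MOE430B arrays. The authors deposited 1 linear signal intensity per probe set and array, made with MAS5 per the submitters' processing notes. Which version, background correction and scaling target it used is not given in the sources used here. Averaged without the highest and lowest 2% of probe sets, the signal was between 1500.2 and 1501 on every array, so that each had been brought to a common level. Fluidics station and scan day were read from the instrument records. Gene symbols came from the platform annotation: 20380 of 22626 MOE430A and 14661 of 22511 MOE430B probe sets had 1 symbol, 691 and 245 had several and 1555 and 7605 had none. RefSeq (GRCm38.p6) matched 20351 and 14486 of those with 1 symbol and changed no member's; 12 MOE430A probe sets that pair a matching symbol with another were not counted.

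The floor was the median of each array over all its probe sets. Replicate 1 was compared with replicates 2 and 3 by lmFit and eBayes of limma 3.58.1 (R 4.3.3) on log2(signal + 16), two-sided, with Benjamini-Hochberg adjustment over all probe sets of the type whose mean log2 signal exceeded that of the floor. The residual degree of freedom was 1, and the prior added 25.6 on MOE430A and 3.49 on MOE430B. The procedure was tested on simulated data whose spreads were drawn from its own fitted prior. The planted differences were larger than that of any member tested, and no effect of station or scan day was simulated. Alternatives were the pseudocount, the filter, the normalization, the prior, the floor, the probe sets counted and the replicates used. The number of arrays limits the precision. Members, role groups and pathway lists were chosen with earlier results of these data known, so no test was made on a list. Genes were named by rule: per role and array type the brightest above the floor (up to 4) and the dimmest not above it (up to 3), the largest differences and spreads, genes with split probe sets, and the paralogues of Rab1, Rab3, Rab5, Rab6, Rab11, Rab27, Arf, Sec23, Sec24, Sec61 and Tmed; Rab8a, Rab8b, Rab15, Rab19, Rab25, Rab32, Rab33a, Rab37, Rab42 and further subunits of named complexes were given to account for the members. Protein sequences and probe sequences were not used here.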

Additional observations from a re-analysis of the deposited data

How the results depend on the processing

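No member was called on either array type with a pseudocount of 1 or 64, no filter on low signals, quantile normalization, or a trended and robust prior; the lowest adjusted limma p of a member over these settings lay between 0.114 and 0.730 on MOE430A and between 0.432 and 0.582 on MOE430B. With 1 replicate against 2, and with 0 of 10594 probe sets called on MOE430B, these p-values say nothing about stability. The median log2 difference of replicate 1 was between 0.02 and 0.03 without replicate 2 or 3 on MOE430A (replicate 2 alone shares its scan day), and between 0.03 and 0.11 on MOE430B. Leaving out each replicate in turn gave a median SD of 0.16 to 0.17 and 88 to 92 genes above the floor on MOE430A, and 0.15 to 0.22 and 50 to 54 on MOE430B. With 1 array fewer to pass, such a count can only stay or rise. The SD is then that of 2 arrays and is not on a par with that of 3, so neither value shows stability. A floor at the 75th percentile kept 59 and 40 genes, a floor at a signal of 200 kept 103 and 66, the first probe set alone 81 and 41, and leaving out probe sets ending in _s_at or _x_at 87 and 40 (MOE430A first; the last was chosen after seeing the data, as was the CpG median without Rab15). Of 175 counts by role under these settings, 20 moved by over 1.5 times, among them the restricted Rabs on both array types. From 3 genes on MOE430A, these went to 1 with the floor at the 75th percentile and to 7 with a floor at 200. On MOE430B they went from 3 to 6 with a floor at 200 and to 0 without probe sets ending in _s_at or _x_at. No paired analysis was possible because replicate numbers are shared only between the array types, which hold the same samples, and no test was made between the types. The 3 arrays of a type leave 1 residual degree of freedom, and signals near the floor cannot be read as absence.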
